A study of Mus musculus with 78 samples.

Results

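The transcriptome of mouse embryonic stem cells depleted of ZFP143 was measured before and after 24 h in medium with all-trans retinoic acid (RA). A gene was described where 2 or more of the 4 depleted libraries held over 10 counts of it, which left 17037 of the 55401 annotated genes. The cells were E14TG2a embryonic stem cells carrying ZFP143-FKBP, in which both endogenous alleles were fused to a degron tag, and the small molecule dTAG-V1 (500 nM) directs that fusion protein to the proteasome. The group called dTAG had received dTAG-V1 for 24 h in stem cell medium with LIF and inhibitors of MEK and GSK3. The group called dTAG RA had then been washed and kept for a further 24 h in a differentiation medium, listed without LIF and without these inhibitors, with RA and with dTAG-V1 still present. The control groups, DMSO and DMSO RA, were of the same tagged line and passed through the same media with the solvent. Each group had 2 libraries from biological replicates. The tag is on a clonal line, and no library had the differentiation medium without RA, so RA, the loss of LIF and inhibitors, and the second day of depletion change together in the dTAG RA libraries and cannot be told apart. Total counts per library were 20820746 and 27089033 before RA and 17165955 and 17514391 after RA in depleted cells, and 13890761 to 22431442 in the control cells.

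RA is a small lipophilic signal made from vitamin A that is carried in the cytoplasm by CRABP proteins and degraded by CYP26 enzymes. In the nucleus it binds heterodimers of an RA receptor (RAR) and a retinoid X receptor (RXR), which sit on paired short DNA repeats called RA response elements. In stem cells it is known for inducing its own degrading enzyme, the receptor gene *Rarb* and the anterior Hox genes, while the naive pluripotency network held by LIF and the inhibitors is lost. ZFP143 is a zinc finger protein that binds promoters of widely expressed genes.

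The promoters of *Cyp26a1* and *Rarb* are shown because each carries such an element, a direct repeat of 2 sites with 5 bases between them, each site being AGTTCA or AGGTCA or either of these with G as its first base, searched on both strands, and because both genes rose with RA in the depleted cells. The 250 bases before each gene start are from RefSeq (GRCm38.p6), with the 17 bases of the element in capitals. The first lies at chr19:37697558-37697807 on the plus strand and its element spans bases 32 to 16 before the start. The second lies at chr14:16575477-16575726 on the minus strand and its element spans bases 53 to 37 before the start.
Cyp26a1: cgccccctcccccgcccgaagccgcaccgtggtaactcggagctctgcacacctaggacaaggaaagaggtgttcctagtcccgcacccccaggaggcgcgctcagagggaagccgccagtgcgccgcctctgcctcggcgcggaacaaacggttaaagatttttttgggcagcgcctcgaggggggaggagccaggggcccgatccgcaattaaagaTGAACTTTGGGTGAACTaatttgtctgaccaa
Rarb: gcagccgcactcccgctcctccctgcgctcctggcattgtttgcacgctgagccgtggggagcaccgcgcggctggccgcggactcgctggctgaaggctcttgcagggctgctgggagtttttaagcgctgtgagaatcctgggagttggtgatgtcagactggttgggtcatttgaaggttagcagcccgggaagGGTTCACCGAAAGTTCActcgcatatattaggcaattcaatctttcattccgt
Such a repeat was found in 29 of 32851 mouse promoters of this length (0.0883%), in 3 of 3236 promoters of genes that rose in the depleted cells (0.0927%) and in 1 of 2311 promoters of genes that fell (0.0433%). Elements outside the window were not searched.

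After RA the dTAG cells had lower levels of 3287 of the 17037 genes (19.3%) and higher levels of 4571 (26.8%) than before it, by edgeR's glmTreat test against a fold change of 1.5 at a Benjamini-Hochberg adjusted p under 0.01. These percentages are the background against which the counts of gene groups below are to be read. The called rises had a median of 2.46 on the log2 scale and the called falls one of -1.31, and 1759 genes rose by more than 3 log2 units while 231 fell by as much, sizes that include genes admitted by their own change. Among genes that passed the filter in both groups the medians were 1.69 and -1.23, with 379 rises and 79 falls of over 3 units. In all 7858 called genes both dTAG RA libraries lay on the same side of both dTAG libraries. The median change over all genes was 0.02, and scaling by library size alone moved it to 0.46 and the calls to 1598 lower and 6245 higher, so the directions below are relative to scaling by the trimmed mean of M-values (TMM).

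The gene filter itself favours genes that change. Of the genes described, 13894 passed in both groups, and 2929 of these were lower and 2666 higher. A further 1792 passed through the RA libraries alone, of which 1597 were called higher and none lower, and 469 passed through the libraries before RA alone, of which 296 were called lower. The remaining 882 genes passed on a mixture of libraries, with 62 lower and 308 higher.

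**Figure D1:**
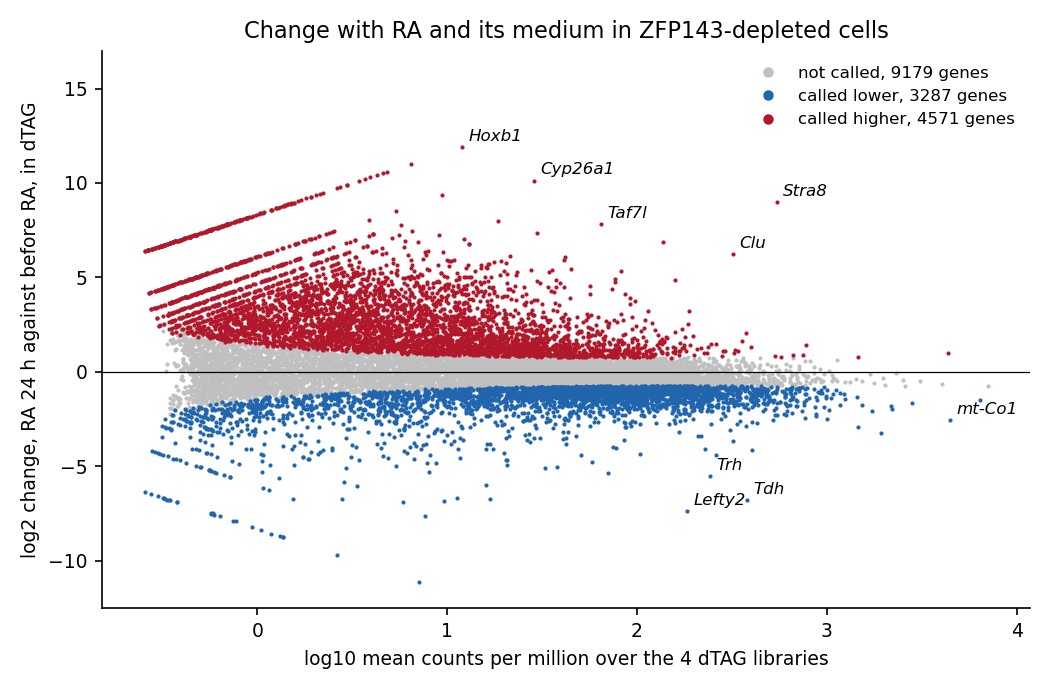
Each point is 1 of the 17037 genes, with the log10 mean CPM (counts per 1000000) over the 4 dTAG libraries on the x axis and the log2 change from dTAG to dTAG RA on the y axis. The 4571 genes called higher are red and the 3287 called lower are blue. *Stra8* lies at the upper right and *Lefty2* and *Tdh* at the lower right, while the oblique lines of points at the left are genes with 0 or few counts in a group, whose fitted change depends on the prior count.

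The protein that was depleted is not seen by these libraries, since dTAG-V1 acts on the protein and the counts are of mRNA. *Zfp143* mRNA in counts per 1000000 (CPM, library sizes scaled by TMM) was 108 and 102 in the 2 dTAG libraries and 87.2 and 90.5 in the dTAG RA libraries. It was 45.4 and 36.7 CPM in DMSO and 35.0 and 35.3 in DMSO RA. The dTAG libraries were thus above the control libraries at both times, and the change with RA in depleted cells was -0.24 ± 0.08 (log2, SE) and was not called.

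The genes that carry and destroy retinoids rose widely in the depleted cells. Of 18 retinoid enzymes, carriers and receptors tested, 13 were higher and none lower (median 1.51). Of the 18, 4 had passed the filter through the RA libraries alone, *Cyp26a1* and *Stra6* among them. In control cells 12 were higher (median 1.12), and the interaction was negative for 6 and positive for 3 of the 18, with a median of -0.07. *Cyp26a1*, which encodes the RA-degrading enzyme, had 2 counts over both dTAG libraries and 54.5 and 60.6 CPM in the dTAG RA libraries. This is a 1266-fold ratio with a 95% counting interval of 350 to 10462 (exact binomial). In the control cells *Cyp26a1* went from 0 counts to 246 and 290 CPM, at least 3166-fold against a floor of 3 counts over the group. Its level after RA was thus lower in both depleted libraries than in both control libraries, and the interaction, the test of whether the RA change differs between depleted and control cells, had an adjusted p of 0.0622 (edgeR quasi-likelihood) with a control group at 0 counts.

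*Stra6*, the membrane receptor for the retinol carrier, rose from 0.419 and 0.281 CPM to 22.0 and 20.9, a log2 change of 5.95 ± 0.25 (adjusted p = 7e-15, edgeR glmTreat). The control cells reached 87.2 and 116 CPM. *Stra6* had passed the filter through the RA libraries alone, so it was admitted by its own rise. *Dhrs3*, which reduces retinaldehyde back to retinol, rose from 2.72 and 3.22 CPM to 16.8 and 19.9, while the control cells reached 95.8 and 125. Both genes rose in depleted cells and both ended below the control libraries.

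*Crabp2*, the carrier that delivers RA to its receptors, showed the same order. Its levels were 3.88 and 3.42 CPM before and 19.0 and 23.0 after RA in depleted cells, and 3.13 and 4.30 before and 146 and 259 after RA in control cells. Its rise of 2.53 ± 0.24 in depleted cells was smaller than the control rise (interaction -3.24 ± 0.38 on the log2 scale, adjusted p = 4.5e-07).

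Among the receptors, *Rarb* rose from 0.262 and 0.523 CPM to 19.3 and 20.6, a log2 change of 5.59 ± 0.25 (adjusted p = 2.1e-14, edgeR glmTreat). The control cells reached 33.5 and 46.4 CPM from 0.212 and 0.232, and the interaction was -1.85 ± 0.66 (adjusted p = 0.029). A ZFP143 peak also lay at an annotated transcript start of *Rarb*, but it was not matched to the promoter shown above. *Rara*, the receptor already present in stem cells, stayed between 93.9 and 118 CPM in the 4 depleted libraries and was not called, with a fitted change of -0.25 that became 0.19 with library size alone.

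A second list held 16 other genes known to rise with RA, and 9 of them were higher in depleted cells, against 14 of 16 in control cells, where the background over all genes was 17.5% lower and 25.6% higher. Their median change was 1.42 in depleted and 2.46 in control cells, and 13 of the 16 had a more negative RA change in depleted cells by the interaction test, whose background over all genes was 18.2% more negative and 12.5% more positive. *Zfp703*, a zinc finger co-repressor gene, went from 1.99 and 1.53 to 62.0 and 71.8 CPM in depleted cells and to 234 and 295 CPM in control cells. *Meis1*, a homeodomain partner of Hox proteins, went from 2.98 and 3.30 to 11.9 and 13.6 CPM, against 38.0 and 50.5 CPM in DMSO RA. *Tshz1*, a zinc finger gene, reached 6.53 and 6.79 CPM from 2.62 and 2.33, against 38.4 and 71.2 CPM in DMSO RA.

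All 3 genes were thus induced in depleted cells and remained several times below the control libraries after RA. *Tshz1* lost its call when dTAG replicate 2 was left out (log2 change 1.35). *Nr2f1*, an orphan nuclear receptor, had 2.41 and 2.77 CPM before and 3.79 and 2.81 after RA in depleted cells and was not called. *Nrip1*, a nuclear receptor corepressor, was an exception in the other direction: it rose from 24.1 and 24.4 to 80.1 and 98.5 CPM, above the 69.0 and 63.2 CPM of the control RA libraries, and its interaction of 0.24 was not called.

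**Figure D2:**
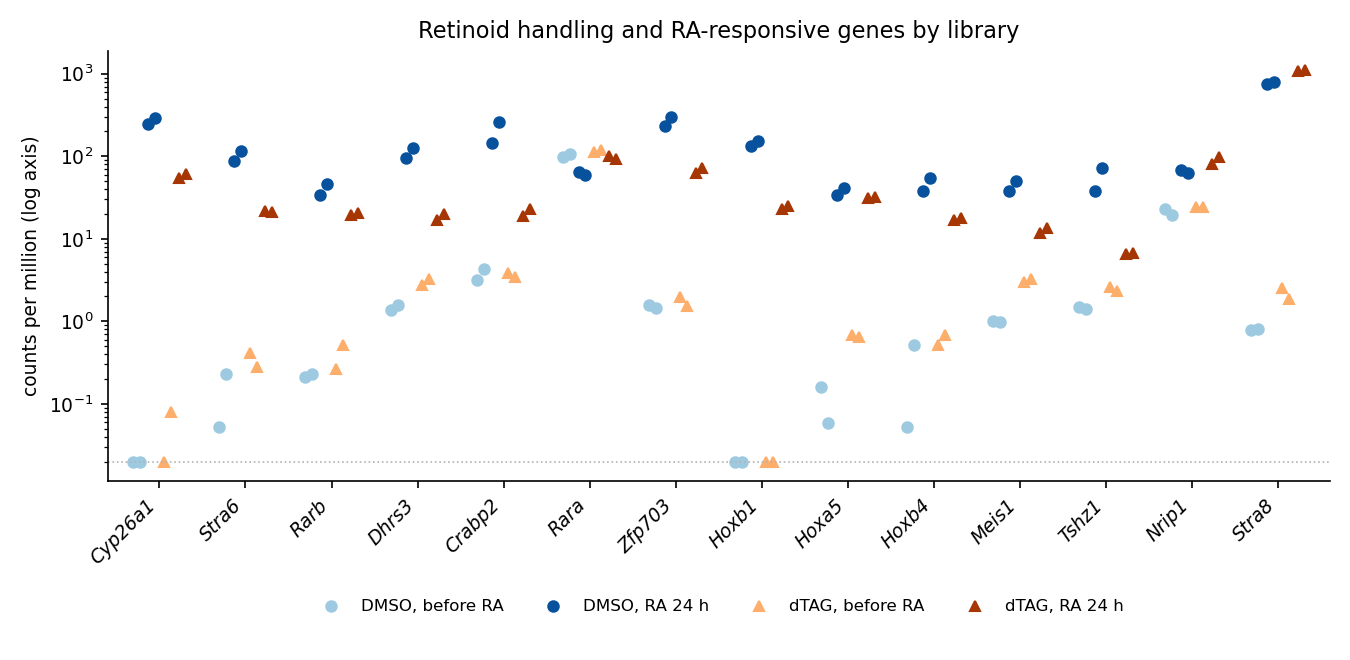
CPM values (log axis) of 14 genes in each of the 8 libraries, circles for DMSO and triangles for dTAG, pale before RA and dark after RA. Values of 0 are drawn on the dotted line. The dark triangles of *Cyp26a1*, *Stra6*, *Dhrs3*, *Crabp2*, *Zfp703* and *Meis1* sit below the dark circles, while those of *Stra8* sit above them.

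The Hox genes, which give cells their position along the body axis, answered RA in the depleted cells in 3 of the 4 clusters as a whole. Of 37 tested, 32 were higher and 1 lower, with 15 of the 37 passing the filter through the RA libraries alone. All 10 Hoxa, all 10 Hoxb and all 8 Hoxd genes tested were higher, but of 9 Hoxc genes 4 were higher and 1 lower. Hoxb moved most, with a median of 8.14 in depleted and 11.3 in control cells, values that depend on the prior count since 4 of its genes had no count before RA in depleted cells. Over the whole list the median was 3.52 in depleted cells, and 5.14 in control cells or 4.78 with genes at 0 counts set to their bound.

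*Hoxb1*, the most anterior gene of its cluster, had 0 counts in both dTAG libraries and 23.1 and 24.9 CPM in the dTAG RA libraries, at least 352-fold higher against 3 counts over the group. In control cells it rose from 0 counts to 132 and 155 CPM, at least 1691-fold. *Hoxa5* rose from 0.681 and 0.643 to 31.2 and 31.8 CPM and *Hoxb4* from 0.524 and 0.684 to 16.8 and 17.8 CPM. Both had a smaller rise than in control cells, with interactions of -2.75 ± 0.60 for *Hoxa5* and -2.54 ± 0.65 for *Hoxb4* on the log2 scale (adjusted p = 0.00076 and 0.0032, edgeR). After RA the control libraries held 34.24 and 40.85 CPM of *Hoxa5*, close to the depleted ones, and 38.43 and 54.35 CPM of *Hoxb4*. The control levels before RA rested on few counts, 3 and 1 for *Hoxa5* and 1 and 9 for *Hoxb4*.

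*Hoxd4* reached only 0.852 and 0.997 CPM, a rise of 2.71 ± 0.57 whose call was lost without dTAG replicate 2 (2.51). It had passed the filter through the RA libraries alone, with 3 counts in each dTAG library. *Hoxc12*, a posterior gene, fell from 7.23 and 7.36 to 0.852 and 1.36 CPM.

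The naive pluripotency genes all fell. Of 17 tested, 17 were lower in depleted cells, with a median of -2.64, and 17 were lower in control cells, with a median of -3.46. For 12 of the 17 the interaction was positive and for none negative, meaning that the fall was smaller in depleted cells. Together the 17 genes summed to 6371 and 6418 CPM in dTAG, which marks these as naive stem cells at the start, and to 1510 and 1375 CPM in dTAG RA, against 795 and 553 CPM in DMSO RA.

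*Esrrb*, an orphan nuclear receptor of the naive network, went from 1016 and 1062 CPM to 395 and 326 in depleted cells and to 85.2 and 49.6 CPM in control cells. Its fall of 1.53 on the log2 scale in depleted cells (SE 0.14) was smaller than the control fall by 2.81 ± 0.20 (interaction, adjusted p = 2.2e-10, edgeR). *Klf4*, a reprogramming factor, went to 78.6 and 65.5 CPM from 244 and 263, and *Tbx3*, a T-box factor, to 93.6 and 74.9 CPM from 228 and 232. In control cells the levels after RA were 37.5 and 17.5 CPM for *Klf4* and 38.1 and 30.1 CPM for *Tbx3*, below both depleted libraries in each case.

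*Nanog*, the homeodomain factor of the network, behaved otherwise: it fell from 591 and 601 to 49.7 and 43.5 CPM in depleted cells, within the 29.2 to 51.5 CPM of the control RA libraries. Its promoter held a ZFP143 peak, and in stem cell medium it had already dropped between the first and second day of depletion, from 539 and 512 to 300 and 303 CPM in the time course table (log2 change -0.80, adjusted p = 7.1e-05, edgeR glmTreat). *Zfp42*, a marker also called Rex1, fell from 779 and 714 to 118 and 108 CPM. *Tcl1*, a kinase cofactor, fell from 143 and 149 to 10.7 and 7.11 CPM, and *Spic*, an Ets factor, from 18.3 and 19.7 to 0.189 and 0.136 CPM.

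Of 9 pluripotency genes shared by naive and primed cells, 6 were lower and none higher (median -1.26). *Pou5f1*, which encodes OCT4, fell from 1537 and 1500 to 461 and 363 CPM, against 541 and 346 CPM in DMSO RA, with no called interaction. *Sox2*, its partner, fell from 304 and 324 to 129 and 113 CPM and ended above the 88.4 and 73.1 CPM of control cells. *Lin28a*, an RNA-binding protein that blocks let-7 microRNAs, fell from 181 and 158 to 68.2 and 73.7 CPM, whereas the control libraries held 205 and 206 CPM before and 181 and 237 after RA.

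The RA change of *Lin28a* thus differed between depleted and control cells (interaction -1.27 ± 0.14, adjusted p = 1.2e-07, edgeR). *Sall4*, a zinc finger factor, fell by 1.54 on the log2 scale and *Utf1*, a chromatin factor, fell by 2.35. Of 12 LIF and STAT3 genes, 8 were lower and none higher. *Socs3*, the feedback inhibitor of STAT3, fell from 156 and 167 to 29.6 and 22.7 CPM and *Lifr*, the LIF receptor, from 137 and 133 to 42.4 and 41.5 CPM, beside the levels of control cells after RA (27.84 and 25.03 CPM for *Socs3*, 44.6 and 36.1 CPM for *Lifr*).

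The genes that follow the inhibited kinases moved in both directions. Of 17 genes that follow ERK signalling, 8 were higher and 4 lower. *Dusp6* and *Dusp4*, phosphatases that switch ERK off, rose from 25.7 and 22.8 to 84.1 and 99.0 CPM and from 2.98 and 2.81 to 66.6 and 63.2 CPM. *Etv5*, an Ets factor, and *Spry2*, a feedback inhibitor, fell by 1.47 and 1.53, and *Myc* fell from 16.81 and 11.98 to 1.14 and 0.906 CPM. Of 13 Wnt and beta-catenin targets, 5 were higher and 3 lower. *Axin2*, the feedback scaffold of the pathway, fell from 50.5 and 48.8 to 25.1 and 24.0 CPM (not called with library size alone), and to 14.5 and 15.1 CPM from 76.3 and 77.3 in control cells. *Sp5* stood at 3.98 and 2.05 CPM before and 1.70 and 1.45 after RA in depleted cells and was not called, although it was when dTAG replicate 2 was left out (-1.33), while it went from 8.12 and 9.24 to 0.485 and 0.750 CPM in control cells.

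Nodal signalling, a TGF-beta pathway active in stem cells, held the gene with the greatest fall named here. Of 15 Nodal pathway genes, 7 were lower and none higher, or 6 lower and 3 higher with library size alone. *Lefty2*, a secreted Nodal antagonist, fell from 377 and 355 to 2.04 and 2.40 CPM, a log2 change of -7.36 ± 0.12 (adjusted p = 1.4e-22, edgeR glmTreat), and to 11.3 and 11.4 CPM in control cells. *Lefty1*, its paralog, fell from 79.2 and 67.6 to 2.37 and 2.08 CPM, against 18.8 and 35.1 CPM in control cells.

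Both Lefty genes ended lower in depleted than in control cells, and both were also lower on the second day of depletion in stem cell medium (-1.18 for *Lefty2*, -0.98 for *Lefty1*). The ligand gene *Nodal*, with a ZFP143 peak at its promoter, fell from 86.0 and 86.4 to 21.7 and 17.9 CPM, and its feedback inhibitor *Smad7* from 78.6 and 83.8 to 17.9 and 14.6 CPM. The coreceptor gene *Tdgf1* went the other way round from the Lefty genes. It fell from 540 and 560 to 75.8 and 53.2 CPM in depleted cells but to 15.5 and 10.6 CPM in control cells, a difference of 1.97 ± 0.18 between the 2 changes (adjusted p = 1.2e-08).

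Genes of the lineages that RA can open rose in part. Of 23 neural genes tested, 12 were higher and 4 lower, with 8 passing the filter through the RA libraries alone. *Pax6*, an early neural factor, reached 12.02 and 13.68 CPM from 1.78 and 1.13, and 49.1 and 54.6 CPM in control cells. *Sox1* was not called in depleted cells (15.4 and 17.6 to 23.6 and 21.2 CPM), though it was with library size alone (0.88), while *Prph*, a neuronal intermediate filament, rose from 10.6 and 8.61 to 156 and 173 CPM.

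In control cells *Prph* rose from 5.09 and 8.02 to 88.1 and 110 CPM, and its interaction of 0.19 was not called. *Prph* had also risen on the second day of depletion without RA, from 4.02 and 4.37 to 50.4 and 50.1 CPM. *Tubb3*, a tubulin gene used as a neuronal marker, and *Nes*, which encodes nestin, were expressed in the stem cells and fell, by 3.54 and 2.46 on the log2 scale. The neural list therefore did not move as a whole. Of the genes of the formative and primed state, 6 of 15 were higher and 5 lower. *Otx2* fell from 17.5 and 19.0 to 2.18 and 1.45 CPM and *Pou3f1* rose from 2.36 and 1.77 to 5.82 and 4.94 CPM, a call lost without dTAG replicate 2 (1.19).

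Of 16 primitive endoderm genes, 12 were higher and 1 lower (median 1.60), and 4 of the 16, *Gata6* among them, passed the filter through the RA libraries alone. In control cells 10 were higher (median 2.17), and the interaction was negative for 6 and positive for 2. *Gata6*, which drives this lineage, rose from 0.262 and 0.201 to 17.9 and 19.5 CPM, above the 9.002 and 7.842 CPM of control cells. *Gata4* rose from 5.13 and 7.80 to 20.7 and 18.6 CPM, against 10.6 and 9.89 CPM in control cells, and *Sox17* from 1.10 and 1.13 to 3.88 and 3.62 CPM. The matrix genes of the list were split: *Col4a1* rose from 46.5 and 48.6 to 117 and 110 CPM, less than in control cells (17.5 and 14.8 to 135 and 134 CPM, interaction -1.80), and *Lama1* fell from 113 and 115 to 35.8 and 36.8 CPM. The interactions of *Gata4*, *Gata6* and *Sox17* were not called, and their levels before RA were also higher in both dTAG than in both DMSO libraries.

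Of 15 primitive streak and early mesoderm genes, 9 were higher and 3 lower (median 2.01, and 0.25 in control cells), with 5 of the 15 passing the filter through the RA libraries alone. *Cdx1*, a caudal homeobox gene, rose from 6.60 and 7.24 to 34.8 and 27.6 CPM in depleted cells, while in control cells the libraries overlapped (15.2 and 19.8 before, 26.4 and 14.0 after RA). *Nkx1-2* fell from 23.6 and 20.8 to 0.189 and 0.227 CPM, and *Eomes* was not called (11.1 and 10.5 to 7.67 and 8.11 CPM). Of 11 trophectoderm genes, 7 were higher and 2 lower, and 3 of the 11, *Hand1* among them, passed the filter through the RA libraries alone. *Hand1* rose from 0.157 and 0.0804 to 3.83 and 2.76 CPM and *Tead4* fell from 73.2 and 82.8 to 18.3 and 15.9 CPM, while the keratin gene *Krt8* was not called unless library size alone was used (0.86). In bulk libraries fewer cells of a type and less RNA per cell cannot be told apart, which applies to each of these lineage lists.

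The meiotic gene *Stra8*, named for its response to RA, had the greatest rise among protein-coding genes with at least 10 counts in every depleted library and a mean of at least 100. It went from 2.51 and 1.89 to 1079 and 1100 CPM, a log2 change of 8.97 ± 0.12 (adjusted p = 4.2e-24, edgeR glmTreat), and from 0.796 and 0.814 to 756 and 798 CPM in control cells. Both depleted libraries were above the control libraries before and after RA. Of 17 germline and meiotic genes, 14 were higher and 1 lower in depleted cells (median 3.18, and 3.05 in control cells), 2 of the 17 having passed through the RA libraries alone. *Dazl*, a germ cell RNA-binding protein, rose from 35.8 and 38.0 to 345 and 336 CPM, against 114 and 101 CPM in control cells. *Taf7l*, a germ cell subunit of a transcription factor complex, rose from 0.628 and 0.523 to 130 and 128 CPM, against 33.9 and 30.2 CPM.

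*Taf7l* is a gene whose induction was greater in depleted cells, by 2.59 ± 0.39 (adjusted p = 1.3e-05). *Rec8*, a meiotic cohesin subunit, and *Mael*, a piRNA pathway gene, rose by 2.40 and 3.31, both by less than in control cells. *Dppa3*, a maternal germline factor, fell from 1.26 and 1.45 to 0.331 and 0.0906 CPM, a call that DESeq2 did not make.

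Of 15 genes tested that mark the rare 2-cell-like state, 15 were higher, but 5 of them had passed the filter through the RA libraries alone. The median was 4.80 in depleted and 3.83 in control cells (3.67 with 2 genes without counts before RA in control cells set to their bound). Their summed level went from 14.4 and 15.6 to 369 and 425 CPM in depleted cells, and from 8.75 and 7.55 to 117 and 111 CPM in control cells. *Tmem92* rose from 0.943 and 0.925 to 30.9 and 30.7 CPM. *Zscan4c* rose from 1.20 and 1.37 to 41.9 and 48.2 CPM, against 10.2 and 8.59 CPM in control cells, and *Usp17le* from 1.10 and 1.53 to 76.3 and 86.4 CPM. The Zscan4 and Usp17l genes are families of near-identical copies, so reads could be split among members and the value of any single copy is uncertain.

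**Figure D3:**
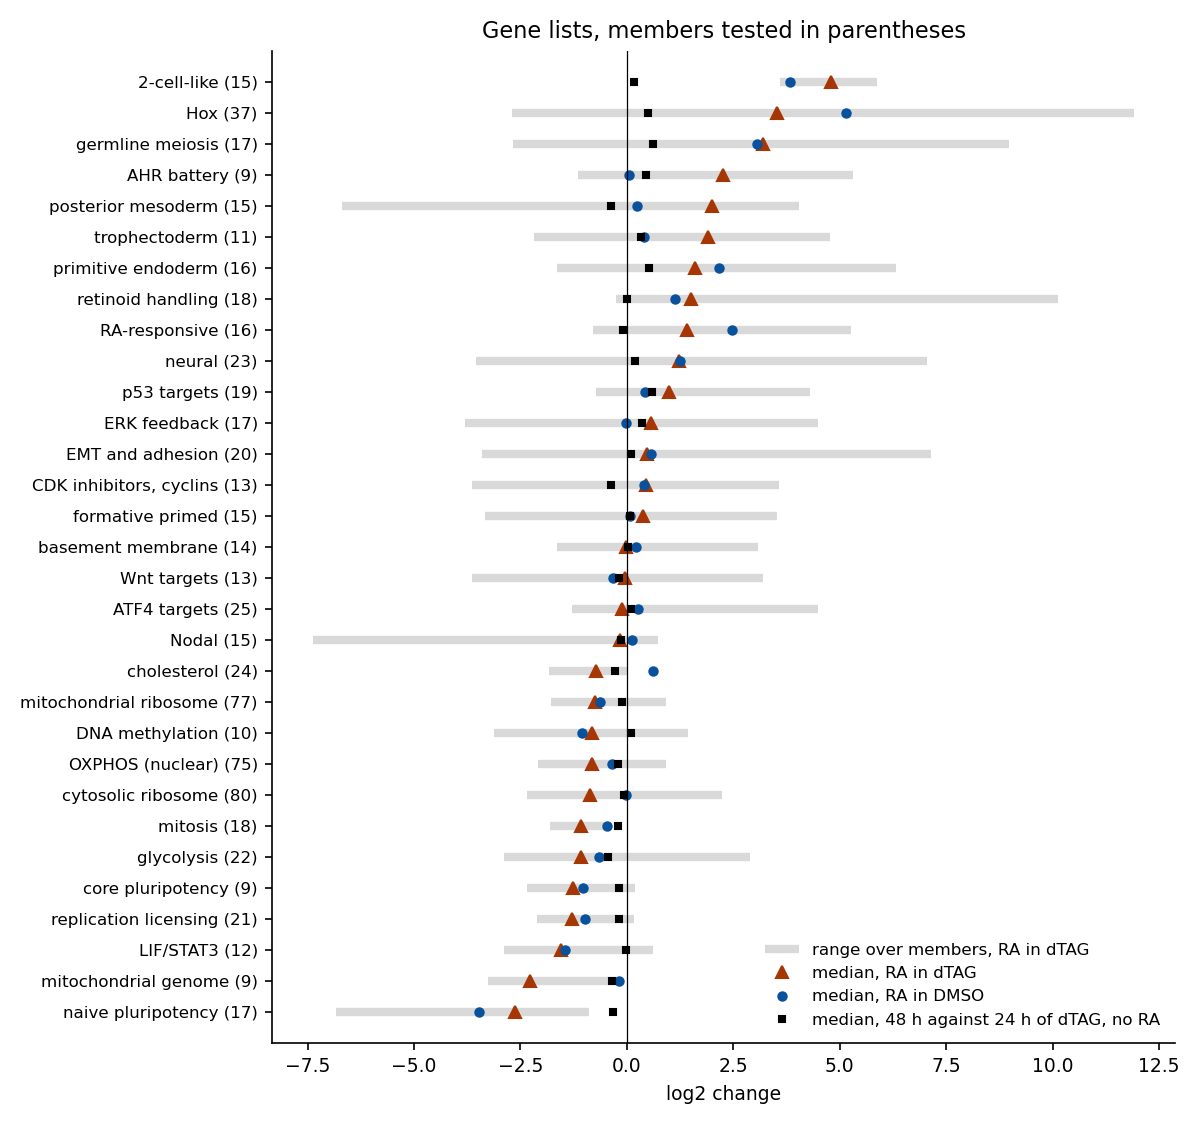
Median log2 change of each of the 31 gene lists with RA in dTAG (triangles) and in DMSO (circles), and between 24 and 48 h of dTAG without RA (squares), with the range over members in dTAG in grey. Among the triangles, the 2-cell-like and Hox lists lie farthest to the right and the naive pluripotency and mitochondrial genome lists farthest to the left. Among the circles, Hox and then 2-cell-like lie farthest to the right and naive pluripotency farthest to the left, but the mitochondrial genome list lies at -0.20. The squares stay nearer to 0 than the triangles for these lists.

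The genes encoded by mitochondrial DNA specify parts of the respiratory chain and the mitochondrial ribosomal RNAs. All 7 protein-coding ones tested were lower in depleted cells and both ribosomal RNA genes were not called, for a median of -2.28 over the 9, while in control cells 4 were lower and 1 higher (median -0.20). The 9 genes summed to 17860 and 18390 CPM in dTAG and 3226 and 3125 CPM in dTAG RA, while the control cells held 24690 and 19990 CPM before and 15430 and 17110 CPM after RA. *mt-Co1*, a subunit of cytochrome oxidase, went from 7413 and 7828 to 1357 and 1244 CPM in depleted cells and from 10010 and 8101 to 10240 and 10650 CPM in control cells.

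The fall of *mt-Co1* in depleted cells was 2.55 on the log2 scale (SE 0.09), and the difference from control cells was -2.76 ± 0.13 (adjusted p = 9.3e-13, edgeR). *mt-Nd1* and *mt-Cytb*, subunits of complexes I and III, fell in both kinds of cells. *mt-Nd1* fell by 3.27 in depleted and fell by 2.25 in control cells, and *mt-Cytb* fell by 2.95 and fell by 1.46. For 8 of the 9 genes the interaction was negative. On the second day of depletion in stem cell medium none of the 9 was called against a background of 0.911% lower and 2.34% higher, and their median change was -0.35. These libraries were made from polyadenylated RNA.

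Of 80 cytosolic ribosomal protein genes, 46 were lower and 1 higher in depleted cells (median -0.88), against 1 lower and 1 higher in control cells (median -0.02), and 68 of the 80 had a negative interaction. With library size alone 18 were lower and the median was -0.44, and 60 had a negative interaction. *Rpl3* went from 858 and 831 to 457 and 432 CPM, whereas the control cells had 1040 and 1085 CPM before and 1151 and 1071 after RA, and *Rps6* from 382 and 383 to 211 and 194 CPM. Neither was called with library size alone. *Rpl37a* fell from 275 and 261 to 53.3 and 52.5 CPM. Ribosomal protein genes have many processed pseudogenes, so their counts are uncertain to that extent.

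Of 75 nuclear subunits of oxidative phosphorylation, 42 were lower and 1 higher (median -0.83), against 13 lower in control cells, and with library size alone 13 were lower in depleted cells. *Atp5g3*, a subunit of the ATP synthase rotor, fell from 425 and 381 to 96.5 and 92.1 CPM, and *Ndufa4* from 172 and 162 to 79.2 and 75.5 CPM (not called with library size alone) while it held 155 and 112 CPM before and 129 and 134 CPM after RA in control cells. Of 77 mitochondrial ribosomal protein genes, 37 were lower and 1 higher, or 9 lower and 3 higher with library size alone, and in control cells 28 were lower and 2 higher. The interaction of this list was negative for 17 and positive for 9 of the 77, or 8 and 10 with library size alone. *Mrpl12* fell from 152 and 143 to 44.3 and 41.1 CPM. The single genes that were higher in these 2 lists, *Cox7c* and *Mrpl24*, both had a ZFP143 peak at their promoter and are taken up with the bound genes below.

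Cholesterol synthesis and uptake genes turned opposite ways in the 2 kinds of cells. Of 24 tested, 11 were lower (6 with library size alone) and none higher in depleted cells (median -0.72), while 10 were higher and none lower in control cells (median 0.60), and all 24 had a negative interaction, or 23 with library size alone. *Hmgcs1*, which makes HMG-CoA, stood at 350 and 346 before and 265 and 275 CPM after RA in depleted cells and was not called, while it rose from 468 and 458 to 981 and 1096 CPM in control cells.

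The interaction of *Hmgcs1* was -1.53 ± 0.10 (adjusted p = 1.1e-10, edgeR), although its change in depleted cells turned from -0.36 to 0.08 with library size alone. *Insig1*, the sterol sensor that retains SREBP in the endoplasmic reticulum, went from 159 and 159 to 93.8 and 92.5 CPM. It was near the threshold, and its call was lost on leaving out any of the 4 depleted libraries (-0.77 to -0.74). In control cells it rose from 152 and 136 to 262 and 278 CPM. *Sqle*, squalene epoxidase, fell by 0.97 (0.53 and not called with library size alone) and *Mvk*, mevalonate kinase, fell by 1.82 in depleted cells.

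Of 22 glycolytic enzymes and glucose carriers, 14 were lower and 2 higher in depleted cells and 9 lower and 3 higher in control cells. *Ldha*, lactate dehydrogenase, went from 688 and 710 to 115 and 103 CPM, and *Pkm*, pyruvate kinase, from 1678 and 1704 to 306 and 296 CPM. In control cells both fell less, to 505 and 619 CPM from 1192 and 1300 for *Ldha* and to 1354 and 1521 CPM from 2731 and 2988 for *Pkm*. Both were also lower on the second day of depletion without RA, by 0.98 and 0.92. *Hk2*, hexokinase, fell by 1.51, close to its fall in control cells (1.64), *Eno2* rose from 7.07 and 7.80 to 55.1 and 56.5 CPM, and *Slc2a3*, a glucose carrier, was not called (1161 and 1237 to 1001 and 921 CPM).

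Of 21 replication licensing genes, 18 were lower (12 with library size alone) and none higher in depleted cells (median -1.29), against 12 lower in control cells (median -0.97). *Cdc6*, a loading factor for the replicative helicase, fell from 102 and 103 to 23.5 and 23.6 CPM and *Mcm2*, a subunit of that helicase, from 650 and 648 to 320 and 311 CPM (not called with library size alone). Of 18 mitotic regulators, 15 were lower in depleted and 7 in control cells, and 11 had a negative interaction, but only 4 were lower in depleted cells with library size alone. *Aurka*, a spindle kinase, fell from 225 and 216 to 68.8 and 58.5 CPM, *Plk1* by 1.41 and *Ccnb1*, cyclin B1, by 1.51 on the log2 scale.

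The D cyclins moved in opposite directions. *Ccnd1* fell from 165 and 151 to 13.2 and 12.3 CPM, while *Ccnd2* rose from 0.628 and 0.804 to 7.81 and 9.60 CPM, changes with no called interaction. Of 19 p53 targets, 10 were higher (16 with library size alone) and none lower in depleted cells (median 0.98), and 9 had a positive interaction and none a negative one. In control cells 8 were higher and 3 lower (median 0.43). *Mdm2*, the ubiquitin ligase of p53, rose from 138 and 132 to 347 and 334 CPM, against 166 and 164 CPM in DMSO RA, and *Pmaip1*, a pro-apoptotic gene also called Noxa, from 3.35 and 3.46 to 72.7 and 60.8 CPM. *Pmaip1* also rose in control cells, from 2.334 and 2.905 to 47.2 and 42.4 CPM, and its interaction of 0.18 was not called. *Cdkn1a*, which encodes p21, was not called in depleted cells (119 and 129 to 184 and 156 CPM), yet it fell in control cells from 178 and 207 to 89.2 and 72.2 CPM.

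The difference for *Cdkn1a* was 1.70 ± 0.14 (adjusted p = 2e-09), and its change in depleted cells passed the test with library size alone (0.89). *Ccng1*, another p53 target, missed the threshold at 0.73 ± 0.07 (adjusted p = 0.0145) and passed it with library size alone (1.17). Of the 19 genes, 6 were also higher on the second day of depletion without RA. Of 25 genes of the integrated stress response, 6 were higher and 3 lower, or 8 and 1 with library size alone. *Ddit3*, which encodes CHOP, rose from 54.2 and 52.9 to 183 and 154 CPM, and *Asns*, asparagine synthetase, fell by 0.87, or 0.43 and not called with library size alone. In control cells *Ddit3* rose by more, from 8.17 and 12.32 to 78.19 and 63.35 CPM (interaction -1.15).

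The aryl hydrocarbon receptor (AHR) is a ligand-activated factor that induces CYP1 enzymes. Of 9 genes of its battery, 5 were higher and none lower in depleted cells (median 2.27, and 0.04 in control cells), 2 of the 9 having passed through the RA libraries alone. *Cyp1a1*, its classical target, rose from 4.29 and 3.82 to 142 and 180 CPM in depleted cells, while the control libraries overlapped at 2.55 and 1.69 before and 2.03 and 3.75 CPM after RA. The difference of 4.96 ± 0.38 (adjusted p = 7.6e-10, edgeR) was the most positive among protein-coding genes with at least 10 counts in all 8 libraries and a mean of at least 100. *Tiparp*, another target, rose from 60.1 and 58.6 to 274 and 296 CPM, against 99.3 and 115 CPM in DMSO RA. *Ahr* itself was not called (12.2 and 13.6 to 15.4 and 13.3 CPM).

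*Cyp1a1* and *Tiparp* had risen by 2.42 and 1.25 on the second day of depletion without RA as well, to 39.3 and 36.4 CPM and to 86.1 and 84.2 CPM in that table. *Cyp1b1*, another CYP1 enzyme, rose by 2.41 on that day (adjusted p = 0.0023, edgeR glmTreat). With RA it rose to 5.63 and 5.89 CPM from 0.367 and 0.402 in depleted cells and to 8.21 and 15.6 CPM in control cells, with a negative interaction (-2.45 ± 0.87). *Cyp1b1* had passed the filter through the RA libraries alone, and before RA it had 7 and 10 counts in dTAG and 4 and 1 in DMSO.

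**Figure D4:**
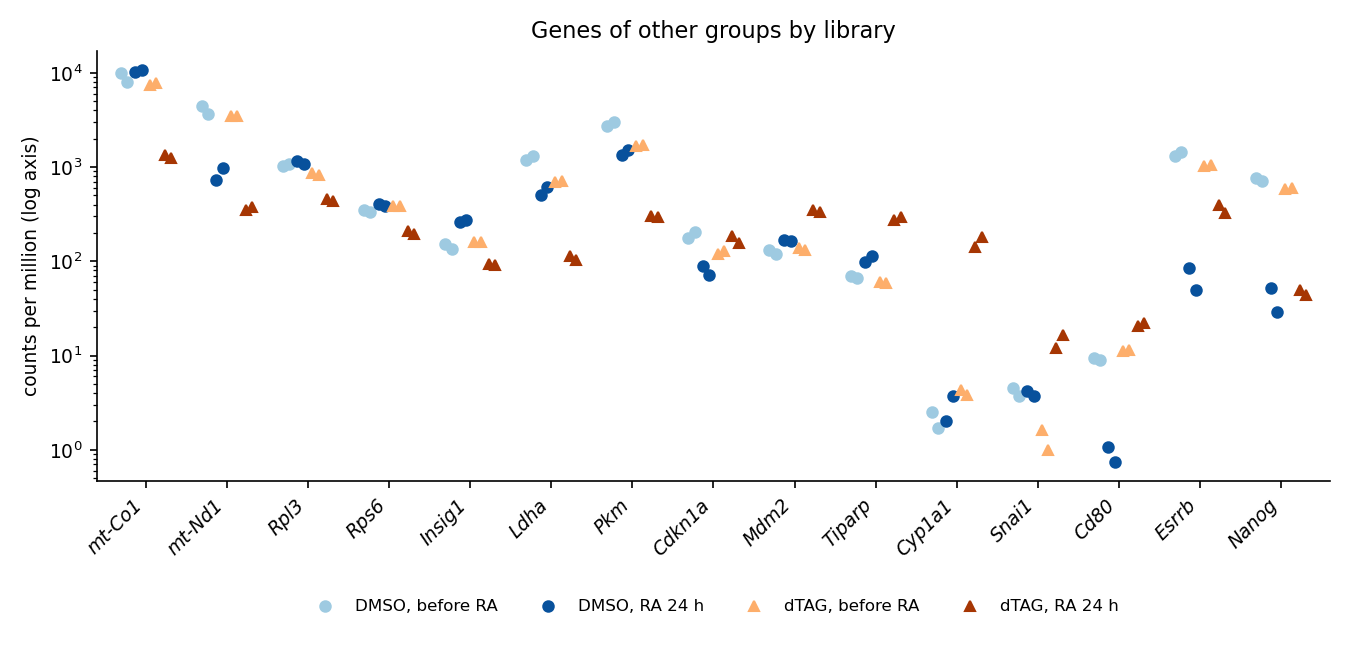
CPM values (log axis) of 15 genes in each of the 8 libraries, drawn as in the plot of RA-responsive genes. The dark triangles of *mt-Co1*, *Rpl3* and *Insig1* lie below all 6 other libraries of those genes, and those of *Cyp1a1*, *Tiparp* and *Mdm2* above them.

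Other genes with the greatest changes came from many functions. Among falls, *Tdh*, threonine dehydrogenase, on which mouse stem cells rely, went from 768 and 738 to 7.05 and 6.39 CPM. *Trh*, a peptide hormone gene, went from 542 and 412 to 10.9 and 9.60 CPM. *Mitf*, a bHLH factor with a ZFP143 peak at its promoter, went from 65.3 and 62.7 to 2.18 and 1.63 CPM. *Grin1*, a glutamate receptor subunit, fell by 4.95 and *Apol6* by 4.81. *Sgo2b*, a copy of the shugoshin gene *Sgo2a* and uncertain for that reason, fell by 6.01.

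Among rises, *Clu*, the secreted chaperone clusterin, went from 8.85 and 8.04 to 610 and 658 CPM in depleted cells, against 86.0 and 96.3 CPM in DMSO RA. *Adgra2*, an adhesion G protein-coupled receptor, went from 2.15 and 2.41 to 260 and 284 CPM, against 131 and 132 CPM. Both ended higher in depleted than in control cells. *Prss50*, a testis protease, and *Greb1l* rose by 6.14 and 6.08 with no called interaction.

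Of 20 adhesion and epithelial-mesenchymal transition genes, 9 were higher and 1 lower. In this list and in each of the ERK, Wnt, p53 and integrated stress response lists, 1 member had passed the filter through the RA libraries alone. The fall was that of *Vim*, vimentin, from 401 and 365 to 38.1 and 34.8 CPM, against 147 and 186 CPM in DMSO RA. *Snai1*, a repressor of E-cadherin, rose from 1.62 and 1.00 to 11.97 and 16.44 CPM while control libraries overlapped (4.56 and 3.72 before, 4.24 and 3.75 CPM after RA), while *Cdh1*, E-cadherin, was not called. Of 10 DNA methylation genes, 5 were lower and 2 higher. *Dnmt3a* rose from 67.5 and 70.0 to 177 and 192 CPM, *Dnmt3b* fell by 1.08, *Dnmt1* by 0.96 and *Tet1* by 1.33. The calls of *Dnmt3b* and *Dnmt1* were lost with library size alone. Of 14 basement membrane genes, 4 were higher and 3 lower, and of 13 G1 cyclins and CDK inhibitors 4 were higher and 3 lower, or 7 higher and 2 lower with library size alone.

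Compared with control cells, the depleted cells shared most of their called genes. Of 3287 genes lower in depleted cells, 2032 (61.8%) were also called lower in control cells, which is 68.1% of the 2983 lower there. Of 4571 genes higher, 3344 (73.2%) were called higher in control cells, 76.8% of the 4356 there. Opposite calls were few, with 12 genes lower in depleted and higher in control cells and 28 the reverse. With library size alone the control calls were 1749 lower and 5525 higher.

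The RA change itself differed at many genes. The interaction, tested with the edgeR quasi-likelihood F test at an adjusted p under 0.05 and a difference above 0.5 on the log2 scale, was negative at 3097 genes (18.2%) and positive at 2125 (12.5%), and the median over all genes was -0.09. With library size alone the split became 2403 negative and 2603 positive.

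*Sfrp5*, a secreted Wnt inhibitor, rose in both but to 11.8 and 12 CPM in depleted against 96.1 and 103 CPM in control cells. *Zadh2* stood between 16.1 and 17.6 CPM in all 4 depleted libraries and rose from 8.86 and 9.76 to 70.6 and 109 CPM in control cells. *Zadh2* and *Tshz1*, both among the most negative, are neighbouring genes that start next to each other on opposite strands of chromosome 18, and neither held a ZFP143 peak. At the positive end, *Cd80*, a costimulatory ligand, held 11.1 and 11.4 before and 20.7 and 22.1 CPM after RA in depleted cells but dropped from 9.39 and 9.06 to 1.06 and 0.750 CPM in control cells.

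The interaction of *Cd80* was 4.22 ± 0.24. The call of its rise in depleted cells (0.93), though not the rise, was lost without either dTAG replicate (0.91 and 0.95) or without dTAG RA replicate 2 (0.91). *Mapk8ip2*, a JNK scaffold, and *Rnd1*, a small GTPase, were not called in depleted cells, at 13.6 and 15.1 to 14.9 and 15.7 CPM and at 5.34 and 5.07 to 7.53 and 5.44 CPM. In control cells they fell to 1.54 and 1.64 CPM and to 1.76 and 1.23 CPM. The RA changes of both differed between depleted and control cells (interaction 3.36 for *Mapk8ip2* and 3.25 for *Rnd1*).

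**Figure D5:**
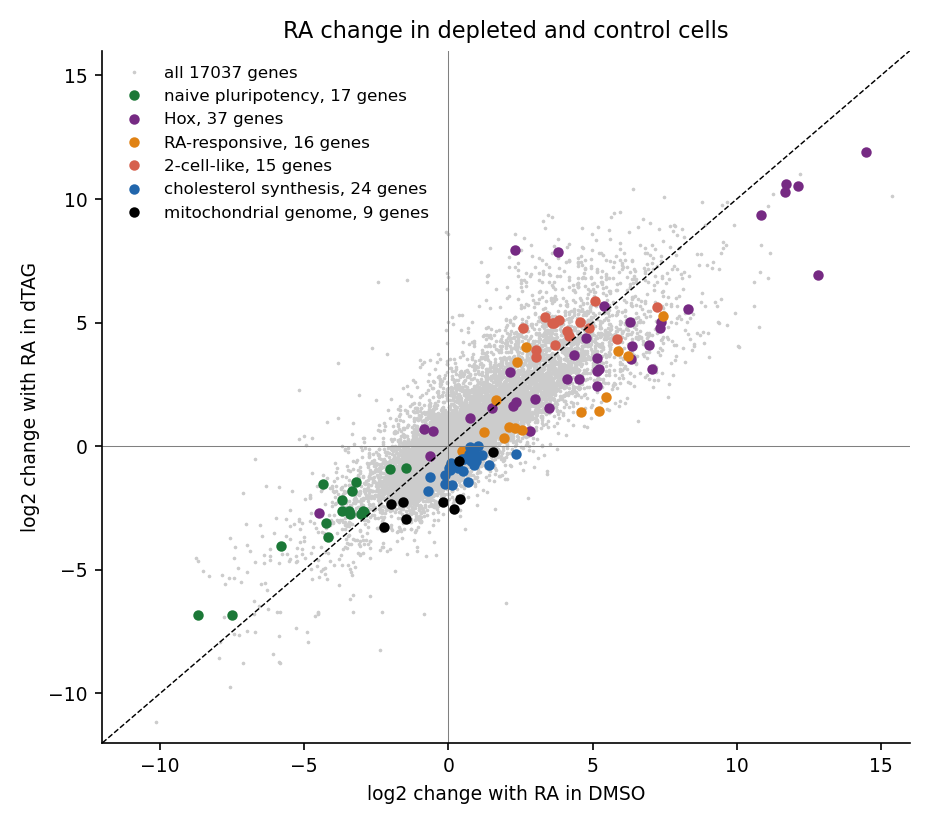
Log2 change with RA in DMSO (x axis) against that in dTAG (y axis) for all 17037 genes, with 6 gene lists in colour and the line of equal change dashed. Most naive pluripotency genes lie above the line on the left, most Hox and RA-responsive genes below it on the right, and the cholesterol genes below it near the vertical axis. Most mitochondrial genome genes also lie below the line, some of them well to the left of that axis.

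The second day of depletion by itself, measured as 48 h against 24 h of dTAG in stem cell medium in a separate table of 14058 tested genes, changed far fewer genes: 128 (0.911%) were lower and 329 (2.34%) higher. These counts were sensitive to single libraries, falling to 170 higher without replicate 1 and to 202 without replicate 2 of the 24 h group, to 202 higher without replicate 2 of the 48 h group, and to 85 lower without either 48 h library. Of all 13979 genes tested in both tables, 3108 were lower and 2683 higher with RA in depleted cells. Of the 125 lower genes also tested for RA, 85 (68%) were lower with RA in depleted cells, and of the 325 higher genes 250 (76.9%) were higher. Taken the other way, these were 2.74% of the 3108 genes lower and 9.32% of the 2683 genes higher with RA that were tested in both tables. The genes higher with RA had a median change of 0.41 on the second day of depletion, those lower -0.19, and all genes 0.01. The part of the second day in the RA changes was not tested, and the tables were normalised separately. At some genes the 24 h dTAG groups of these tables also differed widely. *Dppa3* had 1.26 and 1.45 CPM in the RA table but 45.3 and 40.9 CPM in the time course. *Cdx1* had 6.60 and 7.24 against 0.805 and 1.09 CPM, while *Rara* was close (111.5 and 117.7 against 115.2 and 114 CPM).

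ZFP143 peaks, 3189 in all from ChIP-seq of stem cells, were matched to promoters from 2000 bp upstream to 1000 bp downstream of a transcript start. A peak lay at 477 of 3287 genes lower with RA in depleted cells (14.5%, Wilson 95% interval 13.3 to 15.8), at 1400 of 9179 genes not called (15.3%, 14.5 to 16) and at 381 of 4571 genes higher (8.34%, 7.57 to 9.17). The intervals cover counting error only. The 2258 bound genes had a median RA change of -0.16 and the others 0.05. Of the bound genes 24.5% had a positive and 10.8% a negative interaction, against 10.6% and 19.3% of the unbound genes, values given as a description.

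The promoters of *Slc38a9*, *Mrpl24* and *Cox7c* are shown because these bound genes rose with RA in depleted cells from a level far below that of control cells. The sequences are from RefSeq (GRCm38.p6), with ACTACAA, the core of the motif ZFP143 is known to bind, or its reverse complement in capitals. They lie at chr13:112660516-112660765 (plus strand), chr3:87919294-87919543 (plus strand) and chr13:86046796-86047045 (minus strand).
Slc38a9: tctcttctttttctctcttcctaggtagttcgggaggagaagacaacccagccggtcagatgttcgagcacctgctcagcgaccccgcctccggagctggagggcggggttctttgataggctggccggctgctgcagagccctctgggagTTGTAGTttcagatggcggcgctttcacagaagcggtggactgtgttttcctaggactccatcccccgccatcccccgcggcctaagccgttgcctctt
Mrpl24: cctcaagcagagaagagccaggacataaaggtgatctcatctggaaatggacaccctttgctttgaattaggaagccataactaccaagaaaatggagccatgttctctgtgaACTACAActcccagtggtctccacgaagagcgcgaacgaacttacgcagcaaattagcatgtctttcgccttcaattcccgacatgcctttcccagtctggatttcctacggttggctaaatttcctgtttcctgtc
Cox7c: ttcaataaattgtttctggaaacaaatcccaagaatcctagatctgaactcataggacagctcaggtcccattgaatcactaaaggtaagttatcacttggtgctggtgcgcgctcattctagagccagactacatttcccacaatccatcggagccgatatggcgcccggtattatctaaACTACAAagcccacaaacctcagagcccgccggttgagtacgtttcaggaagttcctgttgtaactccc
These letters were found in 2.81% of all 32851 promoters, in 19.2% of 1783 promoters of tested genes with a ZFP143 peak and in 1.27% of 10137 without one.

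*Slc38a9*, a lysosomal arginine sensor, measured 1.78 and 1.93 CPM in dTAG and 33.1 and 33.8 CPM in dTAG RA, against 12.2 and 13.1 CPM in DMSO and 24.2 and 22.6 CPM in DMSO RA. It thus moved from below to above the control level, with an interaction of 3.27 ± 0.19 (adjusted p = 1.5e-11, edgeR). *Mrpl24* measured 18.0 and 16.8 CPM before and 33.4 and 31.7 after RA in depleted cells, against 118 and 125 before and 100 and 103 CPM after RA in control cells. *Cox7c*, a subunit of cytochrome oxidase, measured 9.32 and 8.69 CPM before and 16.5 and 17.4 after RA, against 80.9 to 94.2 CPM in the 4 control libraries.

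*Mrpl24* and *Cox7c* thus rose by 0.91 ± 0.09 and 0.92 ± 0.11 and stayed well below the controls. Their calls were lost when dTAG replicate 2 was left out (0.86 for each), and that of *Cox7c* also without dTAG RA replicate 2 (0.90).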

How the data were processed

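Stranded polyadenylated RNA libraries were sequenced in pairs of reads, and the counts were deposited by the authors as a table of whole reads per gene, made with STAR on mm10 with GENCODE vM25. The strand setting behind the deposited counts is not given in the sources used here. The deposited ZFP143 peak list (MACS2, 1 pooled list) gives each peak's fold enrichment over input as a ratio and its q-value as −log10, and the peak positions were used. Genes with over 10 counts in 2 or more of the 4 dTAG libraries were fitted with edgeR 4.0.16 (R 4.3.3, quasi-likelihood, TMM, all 8 libraries), and changes were tested with glmTreat against a fold of 1.5. SE is the log2 change divided by the root of its F statistic against no change. CPM are scaled by TMM, and n is 2 throughout. Common biological variation was 5.94% (RA table) and 3.65% (time course). The replicate numbers were not taken as pairs, and replicate pairs differed by more than sampling noise. Names, positions and transcript starts came from GENCODE vM21, which matched 55141 of 55401 genes. RefSeq promoters were matched by symbol to 1783 tested genes with and 10137 without a ZFP143 peak. The members, gene lists and tests were chosen with earlier results of these data known, and the 31 lists carry no test. Named genes were *Zfp143*, examples fixed per list, the called member of each list with the greatest rise and fall, the 8 greatest rises and 8 greatest falls among called protein-coding genes with at least 10 counts in each dTAG library and a mean of at least 100, and the 6 most negative and 6 most positive called interactions by the same limits over all 8 libraries. Fits were tested on simulated data. Alternatives were DESeq2 size factors, library size alone, other count filters, DESeq2 1.42.0, the replicate block, single libraries left out and a narrower promoter window. Other assays of the series were not used here. Intervals cover counting error at the 95% level only. Some genes that met these rules are not reported here.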

Additional observations from a re-analysis of the deposited data

Results flagged for a closer look

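The change with RA differed between depleted and control cells by the edgeR interaction test at 3097 genes in the negative and 2125 genes in the positive direction. The values in parentheses are that difference for the named genes that passed, as the log2 change in dTAG less that in DMSO, and a negative value means that the change in depleted cells lay below that in control cells, whatever their signs. Among those described, the most negative were *Tshz1* (-3.79), *Dhrs3* (-3.61), *Stra6* (-3.50), *Meis1* (-3.44), *Sfrp5* (-3.30), *Zadh2* (-3.26), *Crabp2* (-3.24), *Lefty1* (-3.17), *Pax6* (-2.92), *mt-Co1* (-2.76), *Hoxa5* (-2.75), *Sgo2b* (-2.70), *Hoxb4* (-2.54), *Cyp1b1* (-2.45) and *Zfp703* (-2.16). Next came *Lefty2* (-2.07), *Pou3f1* (-1.90), *Rarb* (-1.85), *Col4a1* (-1.80), *Rpl37a* (-1.73), *Mitf* (-1.69), *Insig1* (-1.68), *Nr2f1* (-1.61), *Grin1* (-1.53), *Ldha* (-1.53), *Hmgcs1* (-1.53), *Pkm* (-1.50), *mt-Cytb* (-1.49), *Vim* (-1.42) and *Lin28a* (-1.27). Then followed *Ddit3* (-1.15), *Mvk* (-1.13), *Rps6* (-1.12), *Ndufa4* (-1.09), *Nes* (-1.05), *Sqle* (-1.03), *mt-Nd1* (-1.02), *Rpl3* (-0.99), *Stra8* (-0.93), *Atp5g3* (-0.85), *Myc* (-0.84), *Sox1* (-0.82), *Aurka* (-0.81), *Cdc6* (-0.75), *Utf1* (-0.72) and *Rec8* (-0.65). The negative values nearest to 0 were *Ccnb1* (-0.61), *Mael* (-0.61), *Nodal* (-0.58), *Mrpl12* (-0.56) and *Plk1* (-0.54).

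The most positive were *Cyp1a1* (4.96), *Cd80* (4.22), *Snai1* (3.51), *Mapk8ip2* (3.36), *Slc38a9* (3.27), *Rnd1* (3.25), *Sp5* (2.96), *Esrrb* (2.81), *Taf7l* (2.59), *Tdgf1* (1.97), *Cdx1* (1.92), *Tdh* (1.89), *Clu* (1.84), *Otx2* (1.80) and *Hoxc12* (1.77). Lower positive values belonged to *Tcl1* (1.76), *Tbx3* (1.75), *Cdkn1a* (1.70), *Tiparp* (1.61), *Klf4* (1.53), *Axin2* (1.36), *Dusp4* (1.33), *Zscan4c* (1.29), *Mrpl24* (1.17), *Mdm2* (0.94), *Cox7c* (0.90), *Etv5* (0.85), *Trh* (0.82), *Sox2* (0.82) and *Zfp42* (0.70). The positive values nearest to 0 were those of *Eno2* (0.70), *Spry2* (0.63) and *Tubb3* (0.58). Groups had 2 libraries, so no single library was tested for standing apart.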

How the results depend on the processing

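With library size alone, genes lower with RA numbered 1598 in dTAG and 1749 in DMSO, and the changes of *Zfp143* (0.20), *Rara* (0.19), *Hmgcs1* (0.08) and *Slc2a3* (0.12) turned positive. Tested against no change, 5167 genes were lower in dTAG. Keeping only genes above 10 counts in all 4 dTAG libraries, an alternative chosen after seeing the data, left 2666 higher. Leaving out single dTAG libraries gave 2751 to 2886 lower and 4113 to 4371 higher. For 48 h against 24 h of dTAG, DESeq2 called 59 lower and 115 higher, and leaving out single libraries gave 85 to 92 lower and 170 to 222 higher. The median of the Wnt list less that of all genes, -0.06, ran from -0.094 without dTAG replicate 1 to 0.01, being 0.004 without dTAG RA replicate 1 and 0.01 without replicate 2. *Zadh2* ran up to 0.07 without dTAG RA replicate 1 and moved from 0.002 to -0.06 without dTAG replicate 2 and to -0.01 without dTAG RA replicate 2. Within 500 bp of a transcript start, peaks lay at 13.3% of genes lower and 14.1% of genes not called. DESeq2 lost the calls of *Tshz1*, *Hoxd4*, *Dppa3*, *Insig1*, *Asns* and *Cd80* with RA in dTAG, 6 of the 130 named genes. The causes were not tested.

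Same-numbered libraries share only a number in the labels, and their deviations correlated at -0.164 to 0.178, so the pairing was not established. With the replicate block the RA change in dTAG was called lower at 3250 and higher at 4552 genes, the interaction negative at 3055 and positive at 2098, and the second day lower at 122 and higher at 323. The block changed no call among the 130 named genes. Depth and 2 libraries a group limit genes with few counts.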
